A study of Mus musculus with 2 samples.

Results

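Inhibitory receptors are surface proteins that lower the response of a T cell, or of the cell that it touches, when they meet their ligands. The set described here held 9 genes, Ctla4, Pdcd1, Lag3, Havcr2, Tigit, Cd160, Cd200, Btla and Cd96, chosen by name out of 16098 genes in the count table, and all 9 were present in it. Their UMI counts (unique molecular identifiers, each standing for one captured mRNA molecule) were compared gene by gene between 2 droplet libraries of regulatory T (Treg) cells, and the cells with 2 or more of the 9 genes detected were counted at matched depth.

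The control library held Treg cells of Foxp3DTR-GFP/y Cd4creERT2 mice, pooled from 5 animals. The rescued library held Treg cells of Foxp3LSL/y Cd4creERT2 mice, pooled from 4 animals, in which a stop cassette kept Foxp3 silent until Cre recombinase removed it. All were male C57BL/6 mice labelled as aged 7 months, all had been given 4-hydroxytamoxifen once they were 14 days old, and cells came from spleen and lymph node. Both genotypes carried Cd4creERT2, a tamoxifen-activated Cre under Cd4 control, and a tdTomato reporter that the same Cre switches on, so that tdTomato marks cells that recombined and their descendants. Cells had been sorted for the GFP that reports Foxp3. Each group was 1 library of pooled animals, so no test across animals was possible, and the 95% intervals given throughout cover counting error only.

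In Treg cells these receptors are part of the suppressive machinery as well as brakes on the cell itself. CTLA-4 takes CD80 and CD86 from antigen-presenting cells and so withholds them from the costimulatory receptor CD28. PD-1 (Pdcd1) binds PD-L1 and PD-L2, LAG-3 binds MHC class II, TIM-3 (Havcr2) has galectin-9 among its ligands, TIGIT and CD96 bind the poliovirus receptor CD155 that the activating receptor CD226 also binds, BTLA and CD160 bind HVEM, and CD200 is itself a ligand, for the inhibitory receptor CD200R1.

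The control library held 3634 cells and 15446201 UMIs, with a median of 3739.5 UMIs per cell, and the rescued library held 3390 cells and 15537656 UMIs, with a median of 3846.5. 3 cell barcodes occurred in both libraries. Of 7 Treg cell markers, all 7 were detected in both libraries. All 7 were higher in rescued cells, 2 of them 1.5-fold or more, Foxp3 by 2.53 and Lrrc32 by 0.96 on the log2 scale. The libraries carry different engineered Foxp3 alleles, and whether Foxp3 RNA is counted alike from both was not tested. Of 11 defining markers of B, myeloid, CD8 and red blood cells, 8 were in the table, with a summed level of 20.8 CPM (counts per gene scaled to the same library total in each population) in the control and 21.2 in the rescued library, of which Cd8b1 made up 275 of 322 and 255 of 329 UMIs. Ms4a1 and Hbb-bs were at 0 in the control library. Of wider marker lists of other cells, Igkc of B cells was 1.31 higher on the log2 scale in rescued cells and Nkg7 of cytotoxic cells differed by −0.78. Without cells holding a defining marker of another cell, 2 members were still 1.5-fold higher and 0 lower, against 5.10% and 2.63% of 9632 genes. This left out 7.87% of control and 8.26% of rescued cells, most of them through Cd8b1, while Cd8a had 1 UMI in each library. Igkc was not among the defining markers, so that this setting says little about RNA of other cells. Markers of activated and resting Treg cells moved with the groups. The 8 activation markers summed to 973 CPM in control and 2127 in rescued cells, with 7 of the 7 that had 100 UMIs 1.5-fold or more higher, and the 7 resting markers summed to 1962 and 859, with 7 of 7 lower. Of 5 cycling markers tested 3 were higher (Mki67, Ccnb2 and Birc5) and 0 lower, of 5 follicular markers 3 were higher (Cxcr5, Tox2 and Asb2) and 1 lower (Bcl6), and of 6 interferon genes 0 were higher and 1 lower (Usp18). Values within clusters of like cells are given further on for this reason.

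The members are spread over 5 chromosomes, and 4 of them lie on 1 stretch of chromosome 16 (GRCm38, GENCODE vM21 gene models). Tigit (43648867 to 43664146, minus strand) comes first, followed by Btla (45224315 to 45257670, plus strand) after 1.56 Mb, Cd200 (45382135 to 45409053, minus strand) after a further 124.5 kb, and Cd96 (46035657 to 46120251, minus strand) after 626.6 kb. Ctla4 (chromosome 1, 60887000 to 60915832, plus strand) lies between Cd28, 113.6 kb to its left, and Icos, 62.1 kb to its right. Pdcd1 (94038305 to 94052553, minus strand) is on the same chromosome. Lag3 (chromosome 6, 124904361 to 124911705, minus strand) is 16.1 kb from Cd4. Havcr2 (chromosome 11, 46454935 to 46481255, plus strand) and Cd160 (chromosome 3, 96798763 to 96829351, minus strand) complete the set. No exon of another gene overlapped a member's exons on the same strand.

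The promoters of Ctla4 and Tigit, the 2 members that differed most between the libraries, and of Cd96, which differed most in the other direction, are printed for reference. Each is 300 bases, 250 before and 50 after the RefSeq start, on the gene's own strand, for Ctla4 at chr1:60908775-60909074 (plus), Tigit at chr16:43664135-43664434 (minus) and Cd96 at chr16:46120199-46120498 (minus) in GRCm38.p6. Capitals mark GGAAA, the core bound by NFAT, on either strand.
Ctla4: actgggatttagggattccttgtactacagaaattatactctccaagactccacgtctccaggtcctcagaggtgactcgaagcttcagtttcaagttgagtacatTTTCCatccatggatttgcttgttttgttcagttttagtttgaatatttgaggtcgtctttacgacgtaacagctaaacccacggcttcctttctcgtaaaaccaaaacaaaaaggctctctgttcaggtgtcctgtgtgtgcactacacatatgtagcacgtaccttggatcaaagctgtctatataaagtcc
Tigit: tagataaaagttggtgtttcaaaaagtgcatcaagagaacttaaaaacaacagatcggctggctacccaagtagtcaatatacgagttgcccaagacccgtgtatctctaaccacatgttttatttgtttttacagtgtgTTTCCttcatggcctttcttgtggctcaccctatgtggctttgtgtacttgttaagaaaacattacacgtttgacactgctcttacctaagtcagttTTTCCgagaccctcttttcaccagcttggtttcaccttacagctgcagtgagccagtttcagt
Cd96: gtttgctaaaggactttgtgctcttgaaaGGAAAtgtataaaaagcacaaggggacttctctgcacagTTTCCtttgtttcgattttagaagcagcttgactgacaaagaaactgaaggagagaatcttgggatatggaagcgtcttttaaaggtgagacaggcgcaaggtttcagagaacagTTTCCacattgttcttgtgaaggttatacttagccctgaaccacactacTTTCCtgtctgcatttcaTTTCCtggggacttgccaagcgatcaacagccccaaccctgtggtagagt
GGAAA occurred 1 time in the Ctla4 window, 2 times in that of Tigit and 5 times in that of Cd96, and it was found in 61.3% of all 32851 RefSeq promoter windows. The AP-1 letters TGANTCA (in 7.81% of all windows) occurred only in the Havcr2 window among the 9 windows of 8 members that RefSeq matched, and the forkhead letters TGTTTNC (in 20.5% of all windows, both strands searched) occurred only in that of Tigit, 2 times. These are letter matches and not measured binding.

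Ctla4 was by far the most abundant member and was higher in rescued cells. Its level was 268 CPM (4132 UMIs) in the control and 489 (7604 UMIs) in the rescued library, a ratio of 1.83-fold, or 0.87 on the log2 scale (interval 0.82 to 0.93). A 3′ kit counts each captured mRNA molecule once at its end, so that levels were not divided by length. Whether RNA of different genes was captured alike was not tested. More rescued cells had a Ctla4 UMI and more had several, but these shares cannot tell more expressing cells from more RNA per cell. A Ctla4 UMI was seen in 52.0% of control and 71.9% of rescued cells, and in 35.1% (interval 33.5 to 36.7) and 52.4% (50.7 to 54.1) once every cell was thinned to 2000 UMIs. Cells with 5 or more Ctla4 UMIs were 4.54% of control and 13.0% of rescued cells, and the highest count in a single cell was 28 and 59. The 10 cells with the most Ctla4 UMIs held 4.28% and 4.67% of the total, and without them the log2 ratio was 0.87. The genes on either side went different ways: Icos, an inducible costimulatory receptor, was higher by 1.32 on the log2 scale, while Cd28, the constitutive costimulatory receptor, differed by −0.13.

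Tigit had the largest ratio of the set on few molecules. The 54 UMIs of the control library and the 154 of the rescued library correspond to 3.496 and 9.91 CPM, a ratio of 2.84-fold (log2 1.503, interval 1.05 to 1.98). Tigit was detected in 1.40% of control cells and 4.28% of rescued cells, with a single UMI in 48 of 51 and 136 of 145 of those cells. Genes of other cells, at the same median depths, covered this range of shares. Cd79a of B cells was seen in 0.936% of control and 0.560% of rescued cells and Ms4a1 in 0 and 0.354%, whereas the immunoglobulin gene Igkc was seen in 1.79% and 4.81%. Cd8b1 was seen in 6.74% and 6.64%, but Cd8a had only 1 UMI in each library, and the source of the Cd8b1 RNA was not tested. The part of free RNA in the Tigit difference was not tested. Without the 10 cells with the most Tigit UMIs in each library the log2 ratio was 1.71 (interval 1.20 to 2.25). Cd96, which shares the ligand CD155 with TIGIT, went the other way. It was the second most abundant member in control cells, at 118 CPM, and was at 81.5 in rescued cells (log2 ratio −0.53, interval −0.64 to −0.43), 1.45-fold lower and short of the 1.5-fold limit. A Cd96 UMI was found in 20.9% of control (interval 19.6 to 22.3) and 14.7% of rescued cells (13.5 to 15.9) at 2000 UMIs. Cd226, the activating receptor of this ligand, differed by −0.16 and Pvr, the mouse gene of CD155, by −0.17.

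Lag3 was detected in more rescued than control cells, and a few control cells were very rich in it. Its level was 66.9 CPM in control and 85.5 in rescued cells (log2 ratio 0.35, interval 0.24 to 0.47). Cells with a UMI were 6.44% of control (interval 5.66 to 7.30) and 11.3% of rescued cells (10.2 to 12.4) at 2000 UMIs. Of the cells with any Lag3 UMI, 41.6% of control and 45.2% of rescued cells had 2 or more, and 13.3% and 9.36% had 5 or more. The top 10 control cells held 21.7% of all control Lag3 UMIs, with up to 36 in a single cell, against 10.2% for the top 10 rescued cells. Without those cells in both libraries the log2 ratio was 0.55 (interval 0.42 to 0.68), and it was 0.67 with each cell weighted equally and 0.61 with cells thinned to 2000 UMIs.

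Pdcd1 showed no difference in level that exceeded counting error. It was at 68.1 CPM in control (1052 UMIs) and 66.8 in rescued cells (1038 UMIs), a log2 ratio of −0.03 (interval −0.15 to 0.10), and was detected in 8.63% (interval 7.73 to 9.60) and 9.74% (8.76 to 10.8) of cells at 2000 UMIs. Its ligand genes were detected in these cells. Pdcd1lg2, coding for PD-L2, was higher in rescued cells by 0.92 on the log2 scale (interval 0.76 to 1.08) and Cd274, coding for PD-L1, by 0.37 (0.21 to 0.53).

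The HVEM receptors and Cd200 were level or lower. Btla was at 50.8 CPM in control and 40.2 in rescued cells (log2 ratio −0.34, interval −0.49 to −0.18). Cd160 was at 12.1 and 13.5 (log2 ratio 0.15, interval −0.14 to 0.44). Their ligand gene Tnfrsf14 had only 34 and 33 UMIs. Cd200 was at 63.3 and 54.1 (log2 ratio −0.23, interval −0.36 to −0.09), while Cd200r1, its receptor, was 0.72 higher in rescued cells (interval 0.54 to 0.89). Havcr2 was close to absent in this sort, with 22 control and 31 rescued UMIs in 0.468% and 0.708% of cells. These shares lie within the range of those genes of other cells, and no difference in Havcr2 between the libraries was detectable at this depth (log2 ratio 0.49, interval −0.35 to 1.34).

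Of the 8 members that passed 100 UMIs over both libraries, 2 were 1.5-fold or more higher in rescued cells (Ctla4 and Tigit), against 5.15% of all 9779 genes that passed, and 0 were 1.5-fold or more lower, against 2.7%. By the counting intervals alone, Ctla4, Tigit and Lag3 lay above the control and Cd96, Btla and Cd200 below it. The share of all genes whose counting interval excludes no difference was not counted, so this has no background beside it. The median log2 ratio of the 8 was 0.06, beside 0.02 for all genes. On chromosome 16, Tigit was higher while the other 3 members of that stretch were lower.

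**Figure D1:**
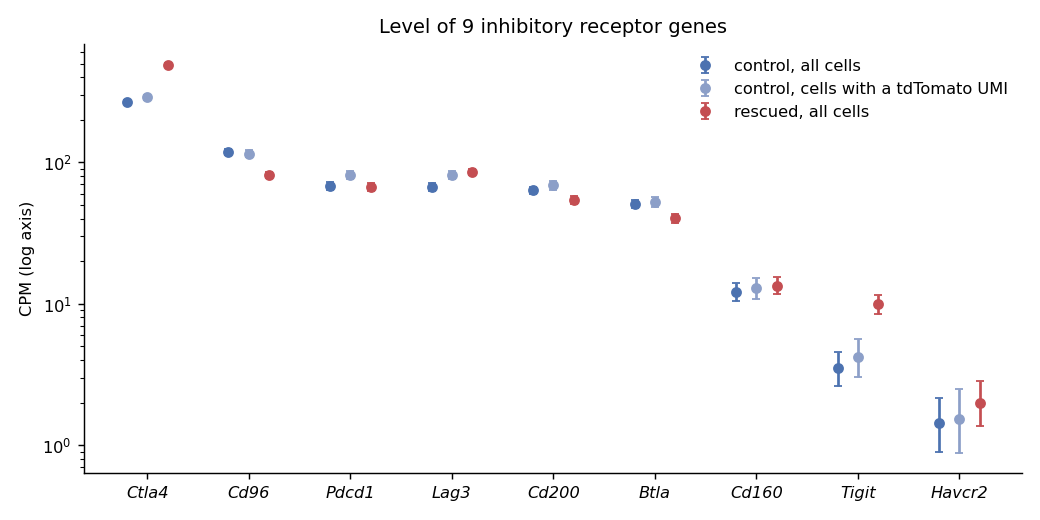
Level of each member in CPM (log axis) in all control cells, in control cells with a tdTomato UMI and in all rescued cells, with 95% Poisson intervals as bars. Ctla4 stands highest in every population and is at 268 in control and 489 in rescued cells, Cd96 is at 118 and 81.5, and Havcr2 lies near 1 to 2 CPM.

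Control cells were also split by whether a tdTomato UMI was detected, which is a class of detection and not of recombined cells. A UMI was found in 2287 of 3634 control cells (62.9%, interval 61.3 to 64.5) but in only 1894 of 3390 rescued cells (55.9%, 54.2 to 57.6), whereas cells with 4 or more made up 12.9% of the control and 23.9% of the rescued library. At this time point the study's flow cytometry found tdTomato in a small part of control Treg cells and in most rescued ones. The class with 1 or more UMIs does not follow that order, whereas the class with 4 or more does. How many cells with a single UMI hold free RNA was not tested. Control cells with a UMI were deeper than the 1347 without (median 3930 against 3508 UMIs per cell). Lag3 was at 81.7 CPM in control cells with and 35.7 in those without a tdTomato UMI (log2 ratio 1.19, interval 0.96 to 1.44), and Pdcd1 at 81.5 and 39.9 (1.03, interval 0.81 to 1.26). Smaller differences in the same direction were measured for Cd200 (0.44, interval 0.23 to 0.65) and Ctla4 (0.37, interval 0.27 to 0.47). Cd96 was at 115 and 123 (−0.09, interval −0.23 to 0.05). Of the 7 members that passed 100 UMIs here, 2 were 1.5-fold or more higher in cells with a tdTomato UMI, against 2.38% of 8733 genes, and 0 were lower, against 0.412%.

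Against control cells with a tdTomato UMI alone, the 8 members kept the order of their ratios. Tigit was higher in rescued cells by 1.24 on the log2 scale (interval 0.75 to 1.75) and Ctla4 by 0.76 (0.70 to 0.82). Lag3 was at 0.07 (interval −0.06 to 0.19). Pdcd1 was now lower in rescued cells (−0.29, interval −0.42 to −0.15), as were Cd200 (−0.35), Btla (−0.39) and Cd96 (−0.50). 2 of 8 members were 1.5-fold or more higher, against 4.04% of 9566 genes, and 0 were lower, against 2.34%. Against the 468 control cells with 4 or more tdTomato UMIs, Pdcd1 was at 66.8 CPM in rescued and 126 in control cells (−0.92, interval −1.09 to −0.74) and became a 1.5-fold lower call. Cd200 was then at −0.57 (interval −0.78 to −0.35), Cd160 at −0.56 (−0.99 to −0.11) and Lag3 at −0.20 (−0.38 to −0.005), while Ctla4 (0.72) and Tigit (0.90, on 15 control UMIs) stayed higher. 2 members were higher and 1 lower, against 3.5% and 2.5% of 9104 genes. All these comparisons share their rescued cells, which were not cut by tdTomato UMIs. The 468 control cells had a median of 4744 UMIs per cell, against 3846.5 in all rescued cells.

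The members were distributed unevenly over cell states. Cells of both libraries were sorted into 10 clusters of like expression, made without the 9 genes, tdTomato or Foxp3, of which 9 had 50 or more cells of each library. Cluster 1, resting-like (led by Igfbp4, Ly6c1 and Dapl1, 7 of 7 resting markers 1.5-fold up), held 1578 control and 237 rescued cells. Cluster 2, activated-like (led by Asb2, Lilrb4a and Neb, 8 of 8 activation markers up), held 211 and 778. Cluster 5, follicular-like (led by Tbc1d4, with 4 of 5 follicular markers up, Bcl6, Cxcr5, Sostdc1 and Tox2, but not Asb2), held 472 and 316. Cluster 9 (led by Areg, Nr4a1 and Egr2, also with 4 of 5 follicular markers up, Bcl6, Sostdc1, Tox2 and Asb2, and 7 of 8 activation markers) held 93 and 151, and cluster 8 (led by Ccr2, Gzmb and S100a4) held 113 and 208. Cluster 1 was the most populous in the control and cluster 2 in the rescued library.

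Pdcd1 and Lag3 differed widely between clusters. In the control library Pdcd1 was at 8.81 CPM in cluster 1, 189 in cluster 5, 207 in cluster 2 and 235 in cluster 9. Lag3 went from 4.48 in cluster 1 to 243 in cluster 2 and 298 in cluster 8, which held 4 of the 10 control cells richest in it. Ctla4 covered a narrower range, from 152 in cluster 1 to 535 in cluster 4 (led by Ccr9, Gbp2b and Plac8). Tigit had 1 UMI in all 1578 control cells of cluster 1 and reached 25.1 CPM in cluster 2. Cd160, Cd200 and Btla were high in cluster 9, where control cells had 50.3, 128 and 96.49 CPM, and Cd200 was at 136 in cluster 7 (led by Nefh, Cdca7 and Irf8) and only 12.05 in cluster 8. Cd96 was flattest, between 58.7 in cluster 8 and 150 in cluster 5. Havcr2 had 12 of its 22 control UMIs and 11 of its 31 rescued UMIs in cluster 8.

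Within clusters, the difference between libraries was smaller for Ctla4 and Tigit and was turned for Lag3. With the 9 clusters weighted by their pooled cell number, Ctla4 was 1.23-fold higher in rescued cells (log2 0.30, range 0.30 to 0.32 over 4 partitions of the cells) and Tigit 1.22-fold (0.29, range 0.13 to 0.46). In cluster 2, the one cluster with 50 or more Tigit UMIs, it was at 25.1 CPM in control and 17.1 in rescued cells, with an interval that included no difference. Pdcd1 was 1.53-fold lower (−0.62, range −0.67 to −0.50) and Lag3 1.484-fold lower (−0.57, range −0.63 to −0.32). Lag3 was at −0.38 without the 10 richest cells of each library, 4 of which in the control were in cluster 8, and at −0.39 without that cluster, while Pdcd1 was at −0.63 and −0.61. Cd96 (−0.44), Cd200 (−0.33) and Btla (−0.31) were at −0.53, −0.23 and −0.34 over all cells. In this weighting 0 members were 1.5-fold higher and 1, Pdcd1, lower, against 2.14% and 2.04% of 9754 genes.

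By cluster, Ctla4 was higher in rescued cells in 8 of 9 clusters, 6 of them beyond counting error, most in cluster 7 (279 against 560 CPM, log2 1.01) and cluster 9 (474 against 888, log2 0.90). Cluster 4 was the exception, at 535 and 497. Pdcd1 was lower in rescued cells in 9 of 9 clusters, 5 of them beyond counting error. In cluster 2 it was at 207 in control and 119 in rescued cells (log2 −0.80, interval −1.05 to −0.55), and in cluster 5 at 189 and 127 (−0.58, interval −0.85 to −0.31). Lag3 was beyond counting error in 4 of 7 clusters with 50 UMIs, lower in rescued cells in each. In the other 3 (clusters 3, 5 and 9) it was higher in rescued cells, at log2 0.25, 0.18 and 0.24, within counting error. Its levels in control and rescued cells were 243 and 168 in cluster 2, 138 and 58.0 in cluster 4, and 298 and 49.3 in cluster 8. Cd96 was lower in 8 of 9 clusters, 5 of them beyond counting error. Cd200 was lower beyond counting error in 4 of 8 clusters and Btla in 2 of 9, and neither was higher beyond it in any.

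**Figure D2:**
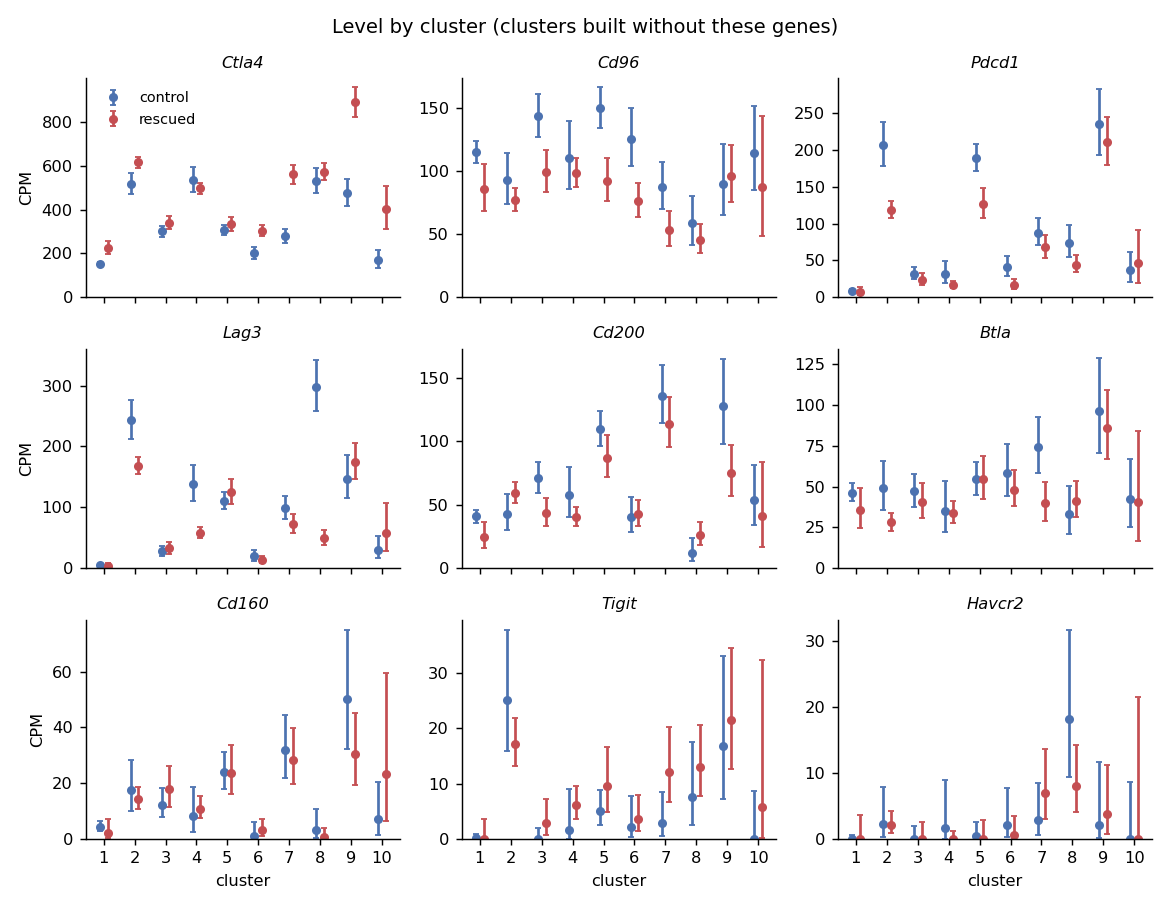
Level of each member by cluster, in CPM, in control and rescued cells, with 95% Poisson intervals. Rescued points lie below control points in 9 of 9 clusters of 50 or more cells per library for Pdcd1 and above them in 8 of 9 for Ctla4.

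Over all cells, more rescued than control cells had 2 or more members detected when Ctla4 was among them. Over the same cells, equal shares had them when Ctla4 was left out. At 2000 UMIs per cell, 826 of 3569 control cells (23.1%, interval 21.8 to 24.6) and 982 of 3357 rescued cells (29.3%, interval 27.7 to 30.8) had a UMI of 2 or more of the 9 genes. 65 control and 33 rescued cells were below that depth and left out. As counted, the shares were 45.6% and 54.7%. Without Ctla4 the shares were 11.2% in both libraries (intervals 10.2 to 12.3 and 10.1 to 12.3), and 1.65% and 1.37% of cells had 3 or more of the other 8. Cells with 4 or more of all 9 were 0.953% of control and 0.864% of rescued cells.

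Ctla4 was present in 71.2% of the control and 83.2% of the rescued cells with 2 or more members. Ctla4 with Cd96 alone was the commonest combination in both libraries, in 19.0% and 17.6% of those cells. Ctla4 with Lag3 alone made up 6.66% in the control and 15.1% in the rescued library. Lag3 was present in 20.8% and 31.9% of the cells with 2 or more members, Cd96 in 45.2% and 32.8%, and Pdcd1 in 27.0% and 25.7%.

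Among control cells with a tdTomato UMI, 26.2% (interval 24.4 to 28.1) held 2 or more members, against 17.9% (15.8 to 20.05) of those without. With 4 or more tdTomato UMIs the share was 35.1% (interval 30.8 to 39.7), beside 29.3% of all rescued cells, whatever their tdTomato UMIs. With Ctla4 left out, these were 13.5% (interval 12.1 to 14.9) with a tdTomato UMI and 17.8% (14.4 to 21.6) with 4 or more. The share of recombined cells within each of these classes of tdTomato UMIs was not measured. By cluster, the share in control and rescued cells was 10.8% and 10.97% in cluster 1, 46.5% and 42.2% in cluster 2, 42.5% and 35.4% in cluster 5, and 56.5% and 53.0% in cluster 9. It was lower in rescued cells in 7 of 9 clusters, but the intervals of the libraries overlapped in 9 of 9 (in cluster 5, 37.96 to 47.2 and 30.1 to 41.0). Weighted over clusters it was 28.0% in control and 25.02% in rescued cells, a value without an interval. This is the reverse order of that over all cells. Without Ctla4 the weighted share was also lower in rescued cells, with values given in the last section.

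**Figure D3:**
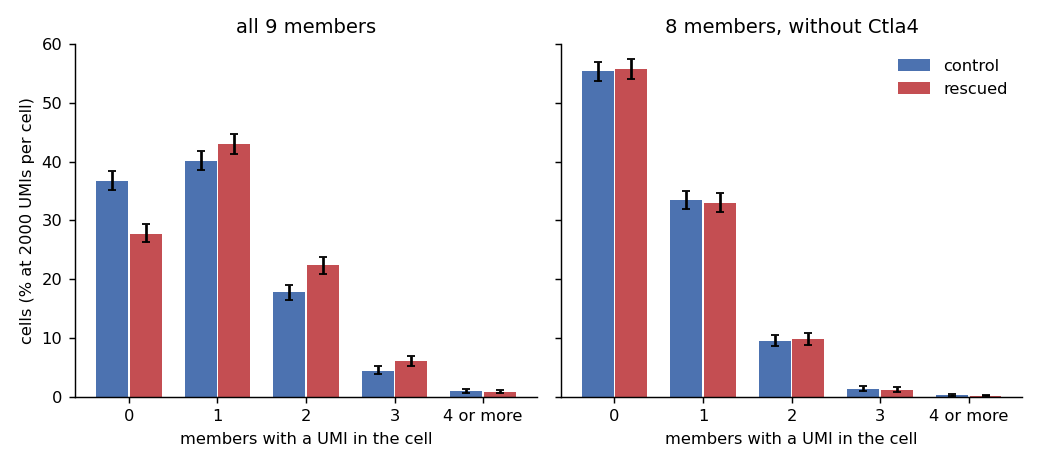
Share of cells (%, at 2000 UMIs per cell) by the number of members with a UMI, for all 9 members and without Ctla4, with 95% Clopper-Pearson intervals. Rescued cells exceed control cells at 2 and 3 members in the first panel, and the libraries overlap at 2 or more in the second.

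Of the pairs seen together in 20 or more cells, Pdcd1 and Lag3 had the largest ratio of the share with a partner to the share without it, in both libraries. Among control cells with a Pdcd1 UMI, 15.3% (interval 11.4 to 19.8) also had a Lag3 UMI, against 5.61% (4.85 to 6.46) of those without. In the rescued library these shares were 22.9% (18.5 to 27.9) and 10.0% (8.99 to 11.2). Ctla4 was seen with Lag3 more often than without it in both libraries: 44.3% of control cells with Lag3 had Ctla4 against 34.4% of those without, and 65.4% against 50.7% of rescued cells. Cd96 and Lag3 went the other way in rescued cells, where 8.71% of Lag3 cells (interval 6.07 to 12.01) and 15.4% of the others (14.1 to 16.8) had Cd96. The intervals overlapped in control cells, at 18.3% and 21.1%.

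Over 19 populations (a cluster in 1 library, 50 or more cells each), the levels of Pdcd1 and Lag3 went together with a Pearson r of 0.85 on the log2 scale and those of Ctla4 and Lag3 with 0.74, while Ctla4 and Cd96 had an r of −0.49. The populations share libraries and clusters, and these values are given as descriptions only. The genes most like Pdcd1 were Tox (r 0.95), which codes for a nuclear factor of the exhaustion programme in CD8 T cells, Zap70 (0.93), a kinase of T cell receptor signalling, and Zfp36l1 (0.92). Those most like Ctla4 were Tmem154 (0.93), Ptger4 (0.91) and Vmp1 (0.90), and those most like Lag3 were Timp2 (0.90), Cyfip1 (0.88) and Nucb1 (0.88). Cd200 was closest to Bmyc (0.93), Tbc1d4 (0.90) and Rfc3 (0.88), Btla to Tagap (0.85), Tgif1 (0.82) and Stat6 (0.82), and Cd96 to Pip4k2a (0.88), Il6st (0.87) and Kmt2a (0.87).

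Cells were also split by whether a Foxp3 UMI was detected. Ctla4 was higher in cells with a Foxp3 UMI by 0.29 on the log2 scale in both the control (interval 0.20 to 0.39) and the rescued library (0.21 to 0.38). Lag3 was higher in such cells by 0.34 in the control (interval 0.16 to 0.53) and differed by −0.60 in the rescued library (−0.77 to −0.43), where cells without a Foxp3 UMI had 116 CPM and cells with one 76.3. Pdcd1 was at 0.16 (interval −0.04 to 0.34) and −0.36 (−0.56 to −0.16). Whether the libraries differ in this relation was not tested. At least 1 Foxp3 UMI was counted in 26.3% of the control cells but in 71.7% of the rescued ones. A cell without one is not thereby a cell without Foxp3. The engineered Foxp3 alleles differ between the libraries, and whether their RNA is counted alike was not tested.

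Among the genes that work with these receptors, more passed the 1.5-fold limit upward than downward in rescued cells, as was so for all genes. These values are over all cells and were not weighted by cluster, although cluster 1 held 43.4% of control and 6.99% of rescued cells. Of 11 activating or costimulatory receptors, all tested, 4 were 1.5-fold or more higher. These were Icos, Tnfrsf9 (4-1BB, log2 0.85), Tnfrsf4 (OX40, 0.81) and Tnfrsf18 (GITR, 0.63). Cd40lg, the CD40 ligand of helper cells, was lower (−0.75), and the 2 most abundant, Cd2 and Cd27, were at 0.36 and 0.18. Of 8 ligands and partners tested, 2 were higher, Pdcd1lg2 and Cd200r1, and 0 lower, while the abundant Hmgb1 and Lgals9 were at 0.11 and −0.03. Of 7 other inhibitory receptors and adaptors tested, 3 were higher, Lilrb4a (1.93), Cd101 (1.09) and Klrg1 (1.00), and 0 lower, with Cd5 at −0.12 and Vsir, coding for VISTA, at 0.28.

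Of 16 transcription factors tied to these receptors, 4 were higher and 2 lower. Prdm1, coding for Blimp-1, was 1.64 higher on the log2 scale, Tox2 0.89, Maf 0.87 and Batf 0.63. Tcf7, coding for the TCF-1 of resting and memory cells, was lower (−1.41), as was Bcl6 (−0.68), and Tox was at −0.11 and Ikzf2 at 0.39. Of 13 signalling and trafficking partners 1 was higher, Lrba (0.63), which protects CTLA-4 from lysosomal degradation, and 0 were lower. Ptpn6 and Ptpn11, the phosphatases that PD-1 and BTLA recruit, were at −0.31 and 0.01, and Lck and Csk were at −0.08 and 0.08. Over all genes, 5.15% were higher and 2.7% lower by the same limit.

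**Figure D4:**
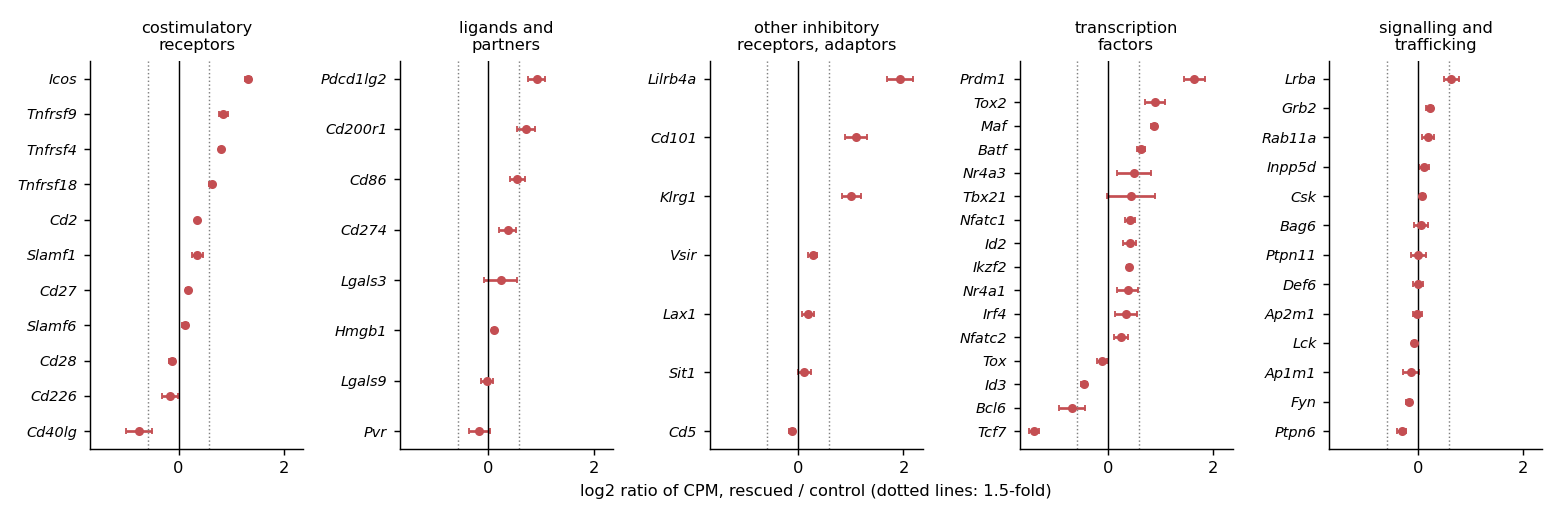
log2 ratio of rescued to control cells, over all cells, for the tested genes of 5 lists around the members, with 95% intervals as bars and 1.5-fold as dotted lines. Lilrb4a (1.93), Prdm1 (1.64) and Icos (1.32) lie farthest to the right and Tcf7 (−1.41) farthest to the left.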

How the data were processed

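Single-cell RNA-seq of sorted Treg cells (10x 3′ v3) was analysed from the deposited table of UMI counts, which the authors made with Cell Ranger 3.0 against GRCm38 (mm10) with the tdTomato reporter added. Seurat 3.1.5 is also named in the submitters' processing notes. Values are whole, unnormalized UMI counts for 7024 cells and 16098 genes. The table holds 0 ribosomal protein genes. The study's methods name a limit of 5% mitochondrial UMIs, whereas 68 control and 97 rescued cells lay at or under it, with medians of 9.43% and 9.06%. No cell was removed here. Doublets were not called, and the 3.5% of cells with the most UMIs were left out in an alternative.

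Counts were summed per library or subset and divided by the total to give CPM (counts scaled to the same total in each population). A gene counted as higher or lower at a 1.5-fold difference, given 100 or more UMIs over both populations. Poisson, Clopper-Pearson and conditional exact 95% intervals cover counting error only. With 1 library of pooled mice per group there is no p-value and no replicate check, and genotype and library cannot be told apart. Neither summed counts nor shares of cells with a UMI can fully separate fewer expressing cells from less RNA per cell. Shares of cells at 2000 UMIs per cell are given beside the sums. Clusters came from 2000 variable genes, 40 principal components, 15 neighbours and leiden at resolution 1 (leidenalg 0.10.2), leaving out the 9 members, tdTomato, Foxp3 and mitochondrial, immunoglobulin and T cell receptor genes. The neighbours of a cell were of its own library in 73.6% of control and 74.2% of rescued cases. Scripts used numpy 2.4.6, pandas 2.3.3 and scipy 1.17.1 and were tested on simulated data.

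The members and gene lists were chosen with earlier results of these data known. Of marker lists of cell types and states, the called genes or counts are given. The text names every member, the genes of each receptor-related list past 1.5-fold with the 2 richest in UMIs, and the 3 genes most like each member with 500 or more UMIs. Cd28, Cd226, Pvr, Cd274, Tnfrsf14, Tox, Ptpn6 and Ptpn11 were added after their values were seen, as partners of members.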

Additional observations from a re-analysis of the deposited data

How the results depend on the processing

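Weighting clusters equally between the libraries moved the counts most. The members 1.5-fold higher in rescued cells went from 2 to 0 and those lower from 0 to 1, with a median log2 ratio of −0.32. Of all genes, 2.14% were higher and 2.04% lower in that setting. In partitions added after seeing the data, the counts were 0 and 2 at resolution 0.5 (median −0.29, Lag3 at −0.63, turned from 0.35), 0 and 0 at resolution 2 (−0.25), and 0 and 0 with another seed (−0.25). Within clusters against control cells with a tdTomato UMI the counts were 0 and 2 (−0.38), against 2.24% and 1.87% of all genes. Pdcd1 was then at −0.66 and Lag3, again turned, at −0.67. Against control cells with 4 or more tdTomato UMIs 2 members were higher and 1 lower (median −0.41), against 3.5% and 2.5% of all genes. At a 2-fold limit 1 member was higher, against 1.72% of all genes. Over 9 alternative settings outside the clusters, Ctla4 stayed between 0.72 and 0.96, Tigit between 0.90 and 1.51 and Cd96 between −0.56 and −0.46. Over the same 9, Lag3 ran from −0.20 to 0.67 and Pdcd1 from −0.92 to 0.21. Also added later, leaving out the 10 cells of each library richest in Tigit gave it 0.53 within clusters, and 1.71 over all cells. The cause of these shifts was not tested.

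The share of cells with 2 or more members followed depth. At 1000 UMIs it was 9.05% in control and 12.8% in rescued cells, at 3000 UMIs 35.4% and 42.3%, and unthinned 45.6% and 54.7%. Without Ctla4 these were 4.13% and 4.04%, 18.2% and 18.1%, and 26.7% and 28.5%. Within clusters the shares were 28.0% and 25.02%, and without Ctla4 13.3% and 9.43%. No paired analysis was possible because control and rescued cells come as 1 library apiece.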
